A study of Mus musculus with 48 samples.

Results

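The genes described here encode the mitochondrial ribosomal proteins of the mouse. They were chosen by name: every gene whose symbol is Mrpl or Mrps followed by a number and at most 1 letter, with the pseudogenes, whose symbols end in -ps, left out. This gave 78 of the 55450 genes measured, 49 with an Mrpl symbol and 29 with an Mrps symbol, and 5 pseudogenes were left out. All 78 had enough counts to be tested in every comparison.

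The mitochondrial ribosome, or mitoribosome, translates the messenger RNAs of the mitochondrial genome, which encode core subunits of the respiratory chain and the ATP synthase. Its ribosomal RNAs are transcribed in the organelle from mitochondrial DNA, whereas its proteins are encoded in the nucleus, made in the cytosol and imported, so that both genomes contribute to each particle. Thermogenic fat is rich in mitochondria, and brown and brown-like adipocytes depend on the respiratory chain for the heat they release through the uncoupling protein UCP1.

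By their place in the particle, 51 members belong to the large subunit and 26 to the small subunit. Mrps30 and Mrps18a carry a small subunit symbol but sit in the large subunit. Mrps36 counts for neither, since its product is known as an adaptor of the 2-oxoglutarate dehydrogenase complex. A bacterial ribosomal counterpart is known for 45 members, 31 are taken here as mitochondria-specific, and 1, Mrpl55, was left unclassified. The 31 include Mrps18a and Mrps18b, which derive from the bacterial protein S18 but occupy other places.

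RNA was sequenced from 48 libraries of cells turned into brown-like adipocytes in culture. The first cell type was preadipocytes from the inguinal white adipose tissue (iWAT) of C57BL/6 mice of 8 to 12 weeks, sampled at days 0, 3, 6 and 9. The second was mouse embryonic fibroblasts (MEFs), sampled at days 0, 4, 8 and 12. Cells of each type came from wild type (WT) mice and from double knockout (DKO) mice, Hmgn1-/- and Hmgn2-/-, which lack HMGN1 and HMGN2, a pair of nucleosome-binding proteins, in all tissues. Each genotype and day was represented by 3 libraries. All cells after day 0 had received a cocktail of insulin, dexamethasone, IBMX, T3 and rosiglitazone, so no culture was followed over time without it. Preadipocytes had 4 days of differentiation medium and 4 of maintenance medium, and MEFs had 8 and 4. The study calls its replicates biological, and whether 1 library stands for 1 animal or for pooled animals is not stated in the sources used here.

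The libraries held 18962483 to 36006696 counts, of which the 78 members took 0.161% to 0.396% in preadipocytes and 0.143% to 0.261% in MEFs. Hmgn2 was at 32.39 CPM (counts scaled to a common library total, with TMM factors) or more in every WT library and at 0.3293 CPM or less in every DKO library. Hmgn1 counts were lower in DKO cells at day 0 by 0.70 on the log2 scale in preadipocytes and 0.62 in MEFs, but were not lost, and the part of Hmgn1 that the knockout removes was not compared with the reads. The summed CPM of 10 adipocyte markers rose from a mean of 332.8 at day 0 to 28440 at day 9 in WT preadipocytes and from 1037 at day 0 to 18830 at day 12 in WT MEFs. Macrophage markers were present as well, and their 8 genes summed to a mean of 7810 CPM in WT MEFs at day 0 and 8988 CPM in WT preadipocytes at day 6. Endothelial markers summed to no more than 24.42 CPM in any group mean. The 5 skeletal muscle markers summed to a mean of 118.5 CPM in WT and 149.8 CPM in DKO preadipocytes at day 0, and to at most 36.23 CPM in any other group mean.

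The members lie on 17 chromosomes, with most, 11, on chromosome 11. Only 1 pair has genes that overlap each other by their outermost ends in GENCODE: Mrpl46 (chr7:78775236-78783531 of mm10, minus strand) and Mrps11 (chr7:78783119-78792989, plus strand). They lie head to head, and by those ends their first 413 bases are shared on opposite strands. The RefSeq starts behind the promoters printed below lie inside those ends, and transcripts from these starts share no bases. Promoters from 250 bases before to 50 bases after the start were found in RefSeq (GRCm38.p6) for 69 of the 78 members, as 75 promoters. The 4 shown are those of the head-to-head pair, of Mrpl51, which rose in every long comparison of days, and of Mrpl52, which fell in preadipocytes. Capitals mark a match to a searched motif on either strand, CCGGAAG for the ETS family or AAGATGGCG for YY1, and the Mrpl46 sequence is printed on its own strand and holds no match.
Mrpl46 (chr7:78783040-78783339, minus strand): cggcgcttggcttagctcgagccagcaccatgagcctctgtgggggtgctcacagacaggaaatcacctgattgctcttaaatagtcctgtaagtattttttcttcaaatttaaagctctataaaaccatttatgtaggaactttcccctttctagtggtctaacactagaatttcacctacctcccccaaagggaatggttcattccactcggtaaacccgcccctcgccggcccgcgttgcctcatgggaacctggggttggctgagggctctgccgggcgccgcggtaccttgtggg
Mrps11 (chr7:78782881-78783180, plus strand): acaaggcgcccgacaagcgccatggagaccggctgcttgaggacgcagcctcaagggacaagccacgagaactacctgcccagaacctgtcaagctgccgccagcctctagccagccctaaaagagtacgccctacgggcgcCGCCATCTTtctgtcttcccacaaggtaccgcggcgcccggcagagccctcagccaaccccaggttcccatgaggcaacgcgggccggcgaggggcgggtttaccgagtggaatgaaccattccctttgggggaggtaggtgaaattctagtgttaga
Mrpl51 (chr6:125191950-125192249, plus strand): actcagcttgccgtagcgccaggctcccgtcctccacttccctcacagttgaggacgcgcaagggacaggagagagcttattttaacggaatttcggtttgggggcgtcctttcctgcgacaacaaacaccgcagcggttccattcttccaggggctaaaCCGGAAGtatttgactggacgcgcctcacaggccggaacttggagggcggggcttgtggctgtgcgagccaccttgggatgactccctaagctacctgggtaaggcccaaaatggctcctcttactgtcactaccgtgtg
Mrpl52 (chr14:54426659-54426958, plus strand): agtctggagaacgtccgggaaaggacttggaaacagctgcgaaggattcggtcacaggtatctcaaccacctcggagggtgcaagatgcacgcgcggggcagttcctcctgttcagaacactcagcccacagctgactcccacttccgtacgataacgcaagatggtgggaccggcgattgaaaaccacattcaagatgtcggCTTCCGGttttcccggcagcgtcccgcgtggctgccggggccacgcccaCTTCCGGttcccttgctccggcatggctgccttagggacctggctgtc

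The ETS letters CCGGAAG were found in 34.67% of the members' promoters and in 11.88% of the 20150 promoters of protein-coding genes in the table (8.86% of all 32851 promoters). The YY1 letters AAGATGGCG were in 10.67%, against 1.93% of protein-coding promoters. NRF1, a factor known to act on genes of mitochondrial respiration, was searched by its full palindrome, found in 4.0% against 1.38%, and by the shorter core GCATGCGC, which lies within the palindrome and was found in 10.67% against 3.65%. AAGGTCA, bound by estrogen-related receptors, was in 5.33% against 3.97%. The E-box CACGTG was in 9.33% against 8.03% of promoters, but counted by gene it was in 7.25% of the 69 members against 9.18% of 16522 protein-coding genes, so that its direction depends on how genes with several promoters are counted. These shares describe letters in a fixed window, and of the 4 promoters shown both the rising Mrpl51 and the falling Mrpl52 hold the ETS letters.

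Between genes, levels were compared in TPM, transcript abundance scaled for gene length and for the total of the library. In preadipocytes the highest means over the 24 libraries were those of Mrpl12 at 174.5 TPM, Mrps21 at 162 TPM and Mrpl20 at 129.8 TPM, and the lowest those of Mrps35 at 8.49 TPM, Mrpl48 at 8.894 TPM and Mrpl23 at 9.257 TPM. In MEFs Mrps21 at 130 TPM, Mrpl12 at 121.9 TPM and Mrpl10 at 108.7 TPM were highest, and Mrps35 at 7.024 TPM, Mrpl48 at 8.678 TPM and Mrps10 at 9.747 TPM lowest. Mrpl12 and Mrpl10 form the stalk that recruits translation factors to the large subunit. By this measure, transcript levels of proteins that enter the particle together spanned more than a factor of 10. The length used was the union of all annotated exons, 8631 bases for Mrps35 and 739 for Mrps21. Order and span depend on it, and which exons these cells use was not tested. The mean TPM of large subunit genes over that of small subunit genes lay between 1.059 and 1.23 in the 8 preadipocyte groups. In the 8 MEF groups it lay between 1.087 and 1.167. In WT preadipocyte libraries this ratio rose from 1.026, 1.063 and 1.087 at day 0 to 1.188, 1.198 and 1.182 at day 6. All DKO libraries were above all WT libraries at days 0, 6 and 9 of preadipocytes and at day 8 of MEFs. On the other days they overlapped, and these differences were not tested.

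Expression of the members rose along differentiation in both cell types. Summed over the 78 genes, the 3 WT preadipocyte libraries gave 1716, 1539 and 1540 CPM at day 0, 1619, 1723 and 1745 CPM at day 3, 2996, 3552 and 3116 CPM at day 6 and 3072, 3121 and 3134 CPM at day 9. Every WT library of days 6 and 9 was above every one of days 0 and 3, and the ranges of days 6 and 9 overlapped. In WT MEFs the sums were 1537, 1565 and 1543 CPM at day 0, 2034, 1855 and 1887 CPM at day 4, 2068, 1916 and 2095 CPM at day 8 and 2405, 2369 and 2359 CPM at day 12. The MEF libraries of day 4 were all above those of day 0 and those of day 12 above all earlier ones, with overlapping ranges at days 4 and 8.

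**Figure D1:**
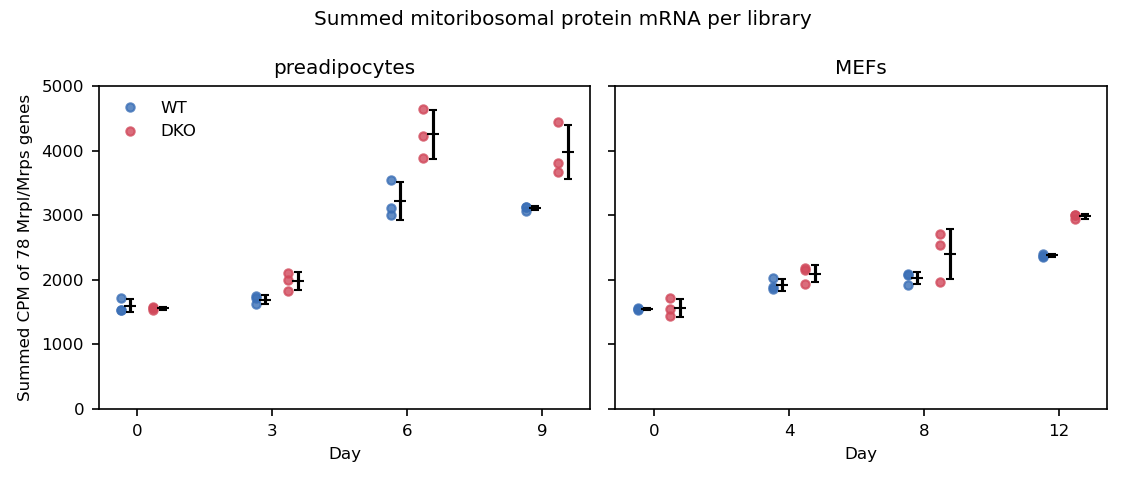
Summed CPM of the 78 mitochondrial ribosomal protein genes against day of differentiation, for preadipocytes and MEFs, with 1 point for each library and WT and DKO in separate colours. WT means went from 1598 to 3109 CPM in preadipocytes and from 1548 to 2378 CPM in MEFs, and DKO means reached 3976 CPM at day 9 and 2983 CPM at day 12.

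Each step was tested with edgeR's quasi-likelihood test, in a fit of the 12 libraries of a cell type and genotype, and calls rest on a p under 0.05 after Benjamini-Hochberg adjustment over all genes tested. In WT preadipocytes 15 members were called higher and 7 lower at day 3 against day 0, where 20.7% of all genes were called higher and 21.4% lower, and the members' median log2 fold change was 0.07. The main step came between days 3 and 6, with 75 called higher and 1 lower (32.8% and 31.9% of all genes) and a median of 0.94. The single member called lower was Mrpl52, and 64 of the 75 were at least 1.5-fold higher, as were 22.5% of all genes. Between days 6 and 9, 1 member, Mrpl39, was called higher and 12 lower (13.7% and 13.3%), so that the share called lower was near that of all genes. These 13 calls became 2 without day 9 replicate 3, 4 without day 9 replicate 1 or 2 or day 6 replicate 3, and 7 without day 6 replicate 1. Over the whole course 73 were higher at day 9 than at day 0 and 1 lower (34.8% and 35.5%), with a median of 0.88.

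DKO preadipocytes started from a mean sum of 1560 ± 19.97 CPM (SD, n = 3), beside 1598 ± 101.9 CPM in WT cells. At day 3 against day 0, 45 members were called higher and 2 lower (23.7% and 19.9% of all genes), at day 6 against day 3, 75 and 1 (32.2% and 33%), and at day 9 against day 6, 0 and 3 (8.62% and 7.42%), the 3 being Mrpl10, Mrpl49 and Mrps25. Those 3 calls became 0 without day 6 replicate 2, 1 without day 9 replicate 1, and 7 without day 9 replicate 3. From day 0 to day 9 the members' median log2 fold change was 1.25, with 76 called higher and 1 lower (34.7% and 35.8%). Same-numbered preadipocyte libraries of days 6 and 9 deviated together in both genotypes, and with the replicate number as a block in a fit of those 6 libraries the day 9 against day 6 calls were 24 in WT (18 without the block) and 14 in DKO cells (2 without it).

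In WT MEFs 43 members were called higher and 2 lower at day 4 against day 0 (26.8% and 26.9% of all genes), 0 at day 8 against day 4 in either direction (1.72% and 1.34%, with 15 members at an unadjusted p under 0.05 and 6 called by DESeq2), and 30 higher and 4 lower at day 12 against day 8 (20.7% and 19.1%). At day 12 against day 0, 65 were higher and 0 lower (19.7% and 24.7%), with a median log2 fold change of 0.46. In DKO MEFs the counts were 38 higher and 0 lower at day 4 against day 0 (17.5% and 20.3%), 0 in both directions at day 8 against day 4, where no gene of the genome was called (9 members at an unadjusted p under 0.05, 0 by DESeq2), and 35 higher and 1 lower at day 12 against day 8 (21.4% and 11.3%). At day 12 against day 0, 75 DKO members were higher and 0 lower (21.2% and 14.6%), with a median of 0.87. The DKO MEF library of replicate 3 at day 8 stood apart, with 4649 CPM of adipocyte markers beside 17560 and 13470 CPM in the others, and without it the 2 steps that use day 8 gave 12 members higher for day 8 against day 4, and 20 higher and 2 lower for day 12 against day 8. The latter step also rested on other libraries, with 10 calls without day 12 replicate 3, 14 without day 12 replicate 2, and 15 without either day 12 replicate 1 or day 8 replicate 2. The 38 calls of day 4 against day 0 in DKO MEFs became 19 without day 0 replicate 3, 20 without day 4 replicate 1, 24 without day 0 replicate 1 and 25 without day 4 replicate 3. In WT MEFs the 0 of day 8 against day 4 became 17 without day 4 replicate 1 and 15 without day 8 replicate 2, and the 34 of day 12 against day 8 became 22 without day 12 replicate 2.

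Nearly all of the 78 members were called higher over the whole course in each cell type, so that most had to be shared between them. Of 73 in WT preadipocytes and 65 in WT MEFs, 63 were shared, which is 86.3% of the first and 96.9% of the second. Of 76 and 75 in DKO cells, 74 were shared (97.4% and 98.7%).

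**Figure D2:**
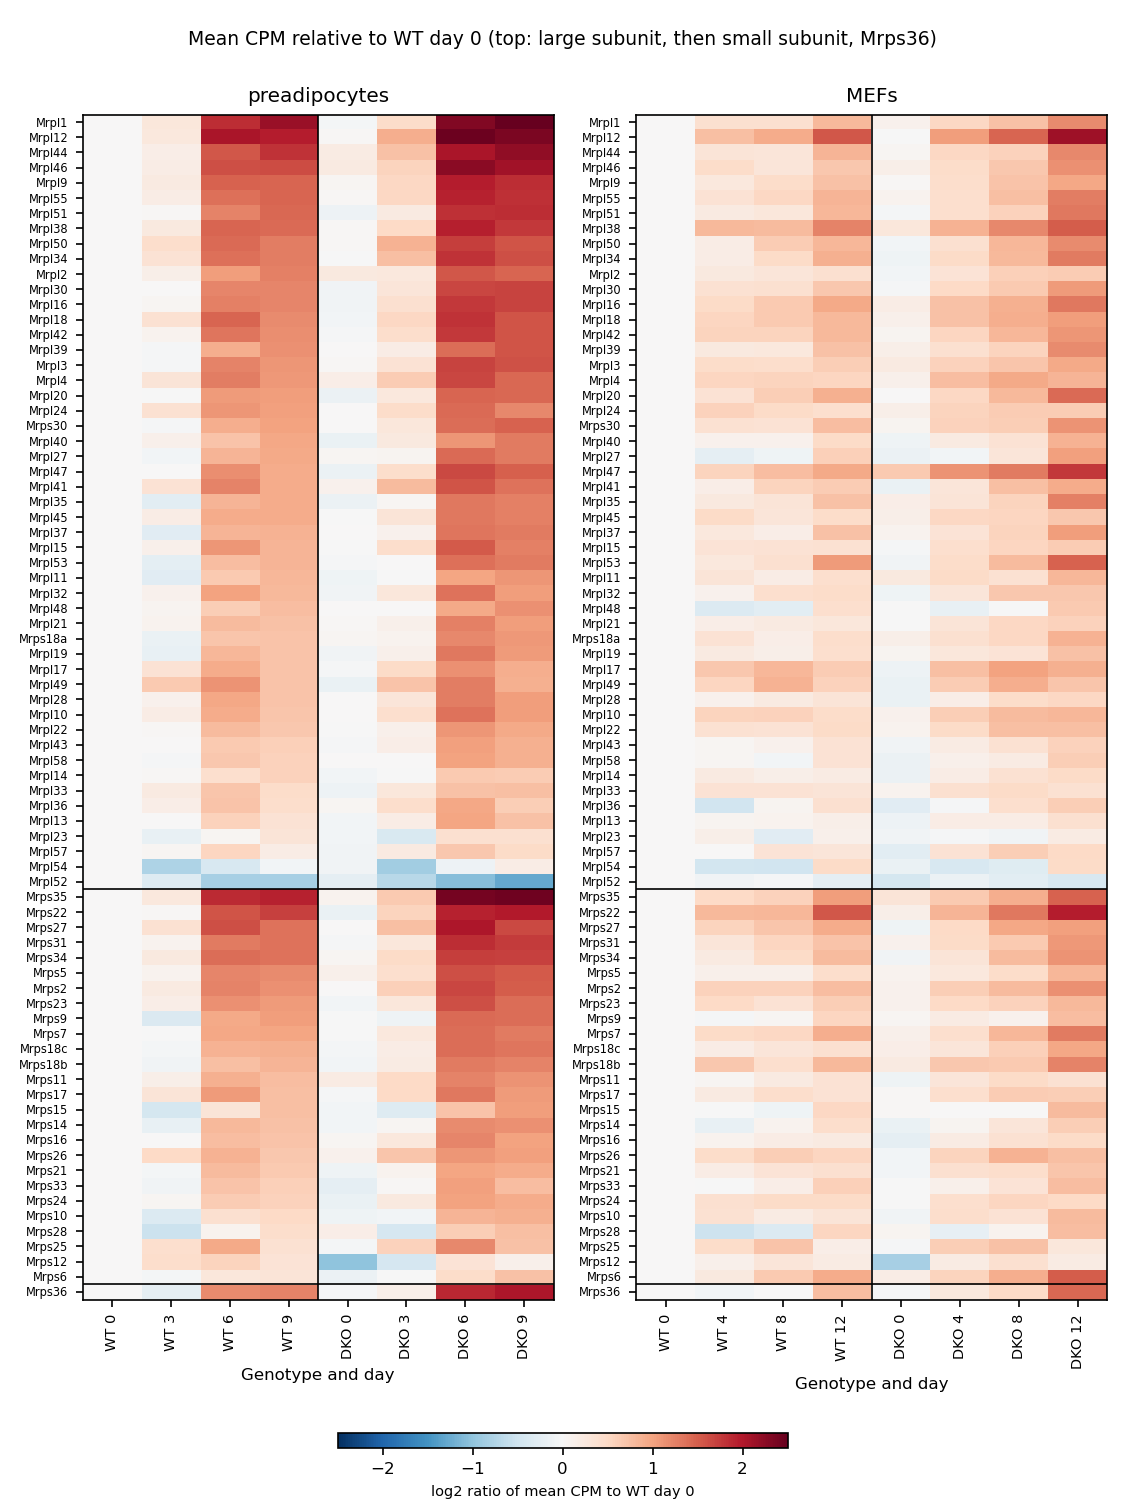
Log2 ratio of each member's mean CPM to its WT day 0 mean, for 78 genes in rows (large subunit, then small subunit, then Mrps36) and genotype and day in columns, in preadipocytes and MEFs. Red is above and blue below the WT day 0 mean, and colours reach their limit at 2.5. Nearly all rows turn red at preadipocyte day 6, while Mrpl52 turns blue.

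The rise differed in size between members. Mrpl1, a protein of the L1 stalk that lets spent transfer RNA leave the large subunit, was at 10.51, 10.06 and 10.93 CPM in the WT preadipocyte libraries of day 0 and at 45.68, 48.46 and 46.49 CPM at day 9. In DKO cells it went from 9.372, 10.75 and 10.16 CPM to 55.66, 66.1 and 64.58 CPM. The ranges of the first and last day were far apart in both genotypes, with log2 fold changes of 2.16 ± 0.107 (SE) in WT (adjusted p = 1.02e-08, edgeR quasi-likelihood test) and 2.61 in DKO cells (adjusted p = 3.44e-08).

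Mrps35, a mitochondria-specific small subunit protein, had 9.69, 8.532 and 8.93 CPM in WT preadipocytes at day 0 and 34.7, 34.94 and 33.66 CPM at day 9, a log2 fold change of 1.92 (adjusted p = 1.82e-08, edgeR). Mrps22, another, went from 12.39, 9.881 and 10.6 CPM to 35.65, 38.07 and 33.7 CPM. Mrpl44, whose protein has a ribonuclease III-like fold, went from 10.63, 10.8 and 11.81 CPM to 36.59, 40.16 and 38.78 CPM. For each of these 3 genes every library of day 9 was above every library of day 0. The stalk protein gene Mrpl12 rose by 1.97 on the log2 scale in WT preadipocytes (adjusted p = 1.28e-07) and by 1.47 in WT MEFs (adjusted p = 6.03e-06), and with Mrps22 it was the member that rose most in MEFs of either genotype.

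Other members varied little. Over all 24 preadipocyte libraries the coefficient of variation of TPM was 8.631% for Mrpl14, 10.07% for Mrpl33 and 11.42% for Mrpl13, beside 51.59% for Mrpl1, 49.37% for Mrpl52 and 47.7% for Mrps35. In MEFs it ran from 8.48% for Mrpl28 to 39.76% for Mrpl12.

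Mrpl52, a mitochondria-specific large subunit gene whose promoter is printed above, was the 1 member called lower over the preadipocyte course. WT libraries held 31.73, 18.8 and 19.95 CPM at day 0 and 12.6, 13.34 and 13.45 CPM at day 9. DKO libraries held 23.26, 15.37 and 21.73 CPM at day 0 and 9.989, 9.367 and 9.725 CPM at day 9. All 6 libraries of day 9 lay below all 6 of day 0, with log2 fold changes of -0.84 in WT (adjusted p = 0.000857) and -1.06 in DKO cells (adjusted p = 0.000163) by edgeR's test. It was also the member called lower at day 6 against day 3 in both genotypes. In MEFs it was not called over the whole course, with log2 fold changes of -0.31 in WT (adjusted p = 0.171) and 0.06 in DKO cells (adjusted p = 0.855).

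Mrpl54, also a mitochondria-specific large subunit gene, fell in the first step. In WT preadipocytes it stood at 23.67, 21.94 and 20.46 CPM at day 0, 13.09, 12.6 and 13.1 CPM at day 3 and 21.64, 20.77 and 20.49 CPM at day 9. The day 3 libraries lay below those of both other days, and the first step had a log2 fold change of -0.77 in WT (adjusted p = 0.000543) and -0.74 in DKO cells (adjusted p = 0.00198). In WT MEFs it fell by 0.46 on the log2 scale to day 4 (adjusted p = 0.0078) and rose by 0.88 from day 8 to day 12 (adjusted p = 0.000221). Mrps28, Mrps9, Mrps10 and Mrpl11 were further members called lower in the first step of WT preadipocytes, with log2 fold changes of -0.54, -0.35, -0.34 and -0.27.

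A few members were called higher in the first step and lower in the last. These were picked out after their values were seen. Mrps25, a mitochondria-specific small subunit gene, did so in all 4 courses, and the log2 fold change of its last step was -0.59 in WT and -0.46 in DKO preadipocytes (adjusted p = 0.000674 and 0.012) and -0.63 in WT and -0.41 in DKO MEFs (adjusted p = 5.14e-05 and 0.0349). Its 3 WT MEF libraries held 22.15, 19.73 and 20.47 CPM at day 0, 34.21, 33.17 and 35.17 CPM at day 8 and 23.09, 23.41 and 23.05 CPM at day 12. In WT MEFs the last day thus came back near the first. In preadipocytes of both genotypes Mrps25 was still called higher at day 9 than at day 0. In DKO MEFs its log2 fold change from day 0 to day 12 was 0.35 (adjusted p = 0.0581, edgeR). Mrpl49, of the large subunit, showed it in 3 of the 4 courses, and its first step in preadipocytes, 0.67 in WT and 0.92 in DKO cells on the log2 scale, had the smallest p of any member there (adjusted p = 2.05e-05 and 2.58e-05). In all, 7 members went up and then down in WT preadipocytes, 3 in DKO preadipocytes, 4 in WT MEFs and 1 in DKO MEFs. The share of all genes with this course was not counted, so these numbers do not set the members apart from other genes.

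DKO cells were then compared with WT cells of the same day, each comparison fitted on its own 6 libraries. Before differentiation no member passed edgeR's test. In preadipocytes at day 0, 0 were called in either direction (0.0727% of all genes were called higher and 0.145% lower), 3 had an unadjusted p under 0.05, DESeq2 called 0, and the median log2 fold change was -0.02. In MEFs at day 0, 0 were called by edgeR (0.0383% and 0.0638%), 2 by DESeq2 and 4 had an unadjusted p under 0.05, and 39 fold changes were positive and 39 negative.

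At day 6 of preadipocytes and day 12 of MEFs most members were higher in DKO cells. Summed over the 78 genes, DKO preadipocytes gave 1565, 1538 and 1577 CPM at day 0, 1829, 2111 and 1991 CPM at day 3, 3880, 4647 and 4227 CPM at day 6 and 3810, 3671 and 4448 CPM at day 9. Beside the WT sums given above, all 3 DKO libraries were above all 3 WT libraries at days 3, 6 and 9. DKO MEFs gave 1555, 1719 and 1442 CPM at day 0, 2184, 1943 and 2152 CPM at day 4, 2710, 2533 and 1963 CPM at day 8 and 2934, 3007 and 3008 CPM at day 12. Here the genotypes were apart at day 12, where WT libraries reached at most 2405 CPM, and overlapped at days 0, 4 and 8.

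At day 6, 46 of the 78 members were called higher in DKO preadipocytes and 0 lower, where 11.6% of all 14694 genes were called higher and 9.96% lower. The median log2 fold change of the 78 was 0.37, and 75 were positive and 3 negative. Signs were not counted over all genes. In 65 members all 3 DKO libraries were above all 3 WT libraries, as in 24.7% of all genes. At day 12, 58 members were called higher in DKO MEFs and 0 lower (17.3% and 15.8% of all 15319 genes), with a median of 0.27 and 67 members whose libraries did not overlap (26.5% of all genes). The differences were small for single genes: at least 1.5-fold for Mrps36 and Mrpl46 at day 6 and for Mrpl47 and Mrps36 at day 12, that is 2 called members on each day, as for 5.03% and 3.92% of all genes. Of the 46 and 58, 41 were the same genes (89.1% and 70.7%), and Mrpl32, Mrpl43, Mrpl45, Mrps27 and Mrps28 were called in preadipocytes alone. With 58 of the 78 members called at day 12, a large overlap was likely for any set of members. The count at day 6 rested on single libraries, since leaving out WT replicate 1, 2 or 3 gave 20, 57 or 8 calls and leaving out DKO replicate 2 or 3 gave 31 or 20. At day 12 it was between 46 and 61 when any 1 library was left out, but 12 in 1 fit over all days. Whether the calls of all genes moved alike in these fits is not shown here.

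In the other 4 comparisons after day 0 few or no members passed. At day 9 in preadipocytes 3 were called higher, Mrps36, Mrpl16 and Mrpl44, and 0 lower (1.17% and 0.939% of all genes), although the median of 0.32 was close to that of day 6 and 69 members did not overlap (22.2%). Without any 1 WT library that count was 0, without DKO replicate 1 or 3 it was 1, and without DKO replicate 2 it was 59. At day 3, 0 were called by edgeR (0.179% and 0.172%) and 5 by DESeq2, with 36 members at an unadjusted p under 0.05, a median of 0.24 and 43 without overlap (10.6%). In MEFs at day 4, 0 were called by edgeR and by DESeq2 (0.0194% and 0.0711%), with a median of 0.12, 2 members at an unadjusted p under 0.05 and 12 without overlap (5.58%). At day 8, 0 were called by both tools (0.0132% and 0.0463%), with a median of 0.23, 12 members at an unadjusted p under 0.05 and 13 without overlap (8.24%), and without the DKO library that stood apart the median was 0.36 with 0 called. The day 9 count also moved with the test, to 24 under DESeq2 and 43 in 1 fit over all days. The shares of all genes called in these alternative fits are not given here, and those at an unadjusted p were not counted. Such counts therefore do not set the members apart from other genes.

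**Figure D3:**
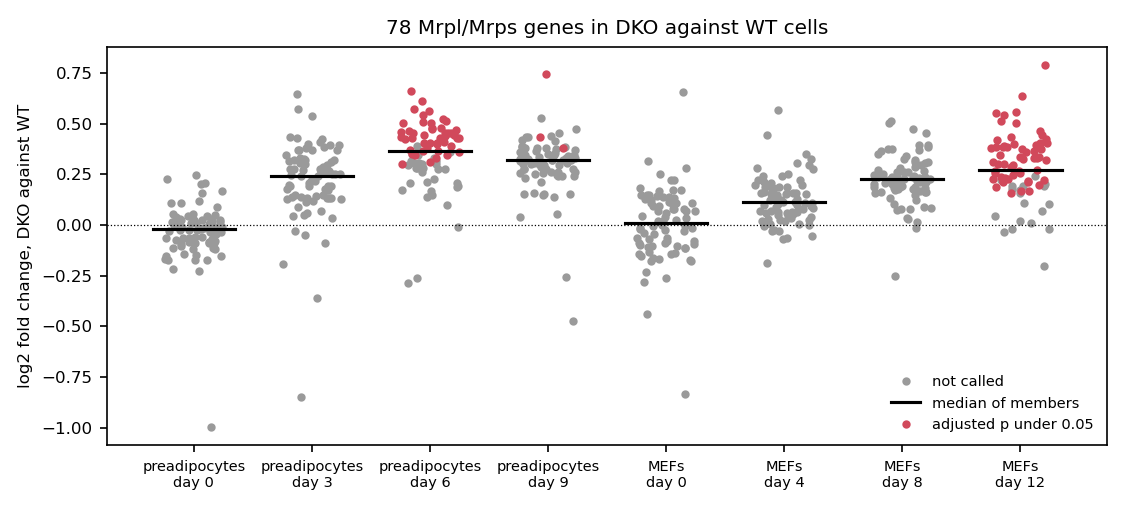
Log2 fold change of DKO against WT for each of the 78 members (points) in the 8 comparisons of a cell type and day, with the members' median as a bar and members at an adjusted p under 0.05 in red. The medians are -0.02 and 0.01 at day 0 and 0.37 and 0.27 at preadipocyte day 6 and MEF day 12.

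Across the 4 late comparisons, days 6 and 9 of preadipocytes and days 8 and 12 of MEFs, 72 members had a positive fold change in every one. Over all 8 comparisons 15 were positive throughout and 1, Mrpl52, was negative throughout, though it was called in 0 of them. The shares of all genes with such signs were not counted. Days 6 and 9 of preadipocytes are not independent either, as their same-numbered libraries deviated together. At preadipocyte day 6, 30 of 51 large subunit and 15 of 26 small subunit members were called higher, with medians of 0.37 and 0.35, and at MEF day 12, 39 of 51 and 18 of 26. Of members with a bacterial counterpart 25 of 45 were called at day 6 and 36 of 45 at day 12, and of the mitochondria-specific ones 19 of 31 and 20 of 31.

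Mrps36 had the largest DKO fold change of the members at days 6 and 9 in preadipocytes. At day 6 its WT libraries held 29.49, 35.27 and 31.51 CPM and its DKO libraries 49.4, 57.09 and 49.69 CPM. At day 9 the WT libraries held 32.51, 35.29 and 32.94 CPM and the DKO libraries 56.19, 53.23 and 63.37 CPM. At MEF day 12 the WT libraries held 19.4, 23.7 and 18.96 CPM and the DKO libraries 32.01, 30.06 and 36.5 CPM. The genotypes were apart on all 3 days, with log2 fold changes of 0.66 ± 0.0891 (SE, adjusted p = 0.00431), 0.74 ± 0.0836 (adjusted p = 0.0149) and 0.64 ± 0.0939 (adjusted p = 0.000117) in edgeR's test. At day 0 they overlapped, at 13.12, 13.41 and 16 CPM in WT libraries, with 12.94, 14.86 and 14.01 CPM in those of DKO preadipocytes. This was the member whose product works in the tricarboxylic acid cycle and not in the ribosome. Its expected counts were not whole in 24 preadipocyte and 14 MEF libraries, so some of its reads were split. Pseudogenes with its symbol were given at most 7.12 counts in any library, and the effect of split reads was not tested.

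Among the large subunit genes Mrpl46 came next at day 6. Its WT libraries held 22.12, 26.1 and 24.2 CPM and its DKO libraries 34.24, 42.14 and 37.06 CPM, a log2 fold change of 0.61 ± 0.0958 (SE, adjusted p = 0.00614, edgeR). In MEFs at day 12 it stood at 13.64, 16.59 and 13.59 CPM in WT libraries, with 20.1, 21.41 and 19.28 CPM in those of DKO cells (0.44, adjusted p = 0.00177). Its head-to-head partner Mrps11, a protein of the small subunit's platform, was not called on either day. At MEF day 12 Mrps11 had 16.64, 15.75 and 15.04 CPM in WT libraries, with 15.03, 15.7 and 17.81 CPM in those of DKO cells (0.01, adjusted p = 0.959), and at preadipocyte day 6 its log2 fold change was 0.31 (adjusted p = 0.062). The pair whose promoters are printed above thus overlapped between genotypes in one gene and not in the other at MEF day 12. Any reads from the 413 bases that the outermost ends share can be told apart only if strand was used in counting. That is not given in the sources used here.

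Other members with the smallest p at day 6 were Mrpl2, at 29.6, 33.77 and 31.67 CPM in WT libraries, with 43.73, 46.43 and 44.59 CPM in those of DKO cells, Mrpl19, at 29, 32.15 and 31.55 CPM and 41.22, 43.79 and 44.23 CPM, and Mrps18c, at 21.15, 24.14 and 22.95 CPM and 31.82, 34.62 and 31.16 CPM. Their libraries did not overlap between genotypes. The adjusted p was 0.00629, 0.00748 and 0.00753, and the log2 fold change 0.47, 0.44 and 0.48. At day 9 Mrpl16, which lies beside the peptidyl transferase centre, had 36.53, 37.25 and 38.4 CPM in WT libraries, with 49.7, 49.5 and 56.02 CPM in those of DKO cells (0.44 ± 0.0708, SE, adjusted p = 0.0418, edgeR). Mrpl44 had 36.59, 40.16 and 38.78 CPM in WT libraries, with 49.66, 50.7 and 53.73 CPM in those of DKO cells (0.38 ± 0.066, SE, adjusted p = 0.0432, edgeR).

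The smallest p of MEF day 12 belonged to Mrpl12, with 77.11, 73.14 and 76.05 CPM in WT libraries, with 106.7, 113.8 and 116.8 CPM in those of DKO cells. The genotypes were well apart and each was tight, giving 0.55 ± 0.0461 (SE, adjusted p = 2.17e-07, edgeR). Replicate libraries of MEF day 12 lay closer together than those of most groups, so the small p values of that day rest on a small spread. Whether that spread covers differences between animals was not tested. In preadipocytes at day 6 the libraries of Mrpl12 overlapped, at 110.2, 158 and 128 CPM in WT libraries, with 148.6, 211.4 and 161.5 CPM in those of DKO cells (0.36, adjusted p = 0.139). Mrpl51, whose promoter is printed above, was at 63.03, 63.27 and 62.94 CPM in WT libraries, with 85.01, 89.61 and 91.19 CPM in those of DKO MEFs (0.47, adjusted p = 1.06e-06). Mrpl20, whose bacterial counterpart binds early in the assembly of the large subunit, was at 60.52, 61.17 and 62.46 CPM and 84.92, 88.63 and 93.53 CPM (0.51, adjusted p = 6.63e-07). For these genes all DKO libraries of MEF day 12 lay above all WT libraries.

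Mrpl47 and Mrps6 also passed in MEFs at day 12. They are among 42 members that overlap another annotated gene, 36 of them on the opposite strand and 13 on the same strand. The others include Mrpl2, Mrpl51 and Mrps18c (same strand) and Mrpl10, Mrpl12, Mrpl19, Mrpl44, Mrpl45, Mrpl49, Mrpl58, Mrps18a, Mrps22, Mrps25 and Mrps30 (opposite strand), and whether their counts hold reads of those partners was not tested. Mrpl47 held 16.5, 16.55 and 16.71 CPM in WT libraries, with 25.63, 30.88 and 31.12 CPM in those of DKO cells, which was the largest log2 fold change of the members there, 0.79 ± 0.0834 (SE, adjusted p = 2.48e-06, edgeR). Its difference was already positive in MEFs at day 0, at 0.66 (adjusted p = 0.327), and its libraries did not overlap between genotypes on any day of MEFs or on days 3, 6 and 9 of preadipocytes. The gene lies over parts of Actl6a and Ndufb5 on the opposite strand. Mrps6 held 42.99, 39.42 and 40.6 CPM in WT libraries, with 57.9, 64.96 and 61.16 CPM in those of DKO cells (0.56, adjusted p = 1.95e-06), and it shares its strand and part of its length with Slc5a3, so that the counts of either can hold reads of the other.

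**Figure D4:**
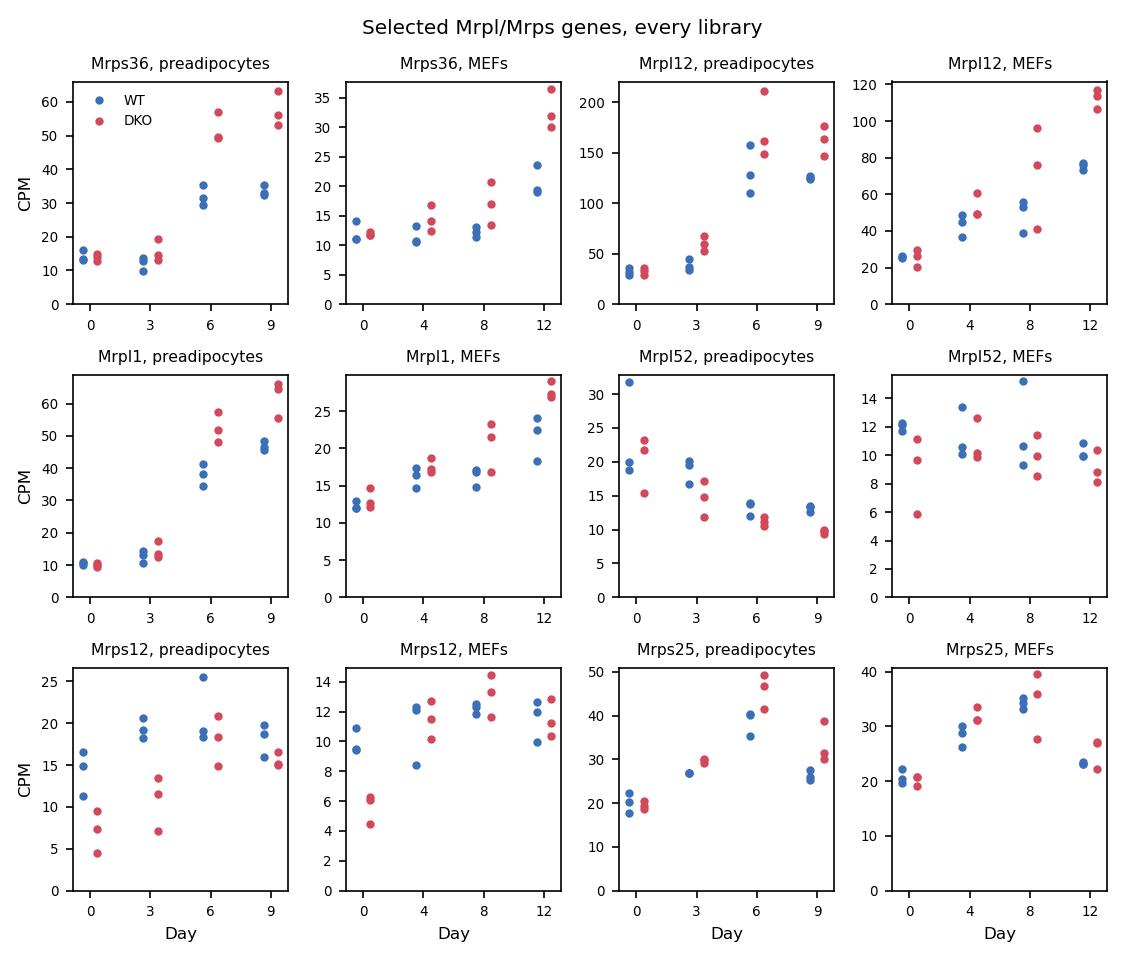
CPM in every library against day for Mrps36, Mrpl12, Mrpl1, Mrpl52, Mrps12 and Mrps25, in preadipocytes and MEFs, with WT and DKO libraries side by side. Mrps36 is apart between genotypes at preadipocyte days 6 and 9 and MEF day 12, Mrpl52 falls in preadipocytes, and Mrps25 comes down on the last day.

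Of the members named for their role, the stalk protein gene Mrpl10 was called on both of these days, by 0.41 on the log2 scale at preadipocyte day 6 (adjusted p = 0.0302) and 0.34 at MEF day 12 (adjusted p = 7.05e-05). Its neighbour in the stalk, Mrpl11, stood at 0.30 (adjusted p = 0.0596) on the first and 0.39 (adjusted p = 0.000247) on the second. Mrpl45, which ties the ribosome to the inner membrane, was called at day 6 (0.37, adjusted p = 0.0314) and not at MEF day 12 (0.19, adjusted p = 0.162). Mrpl58, a peptidyl-tRNA hydrolase that frees stalled ribosomes, was called on neither (0.30, adjusted p = 0.0815, and 0.22, adjusted p = 0.115). Mrps30 and Mrps18a, the large subunit proteins with a small subunit symbol, passed on both days by edgeR's test. Mrps30 had 0.46 (adjusted p = 0.00884) at day 6, then 0.32 (adjusted p = 8e-04) at MEF day 12, and Mrps18a 0.47 (adjusted p = 0.0146), then 0.39 (adjusted p = 0.000142).

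Mrps12, a protein of the decoding centre, had negative fold changes at day 0 of both cell types and at day 3 of preadipocytes that did not pass the test. In preadipocytes at day 0 it had 16.6, 14.89 and 11.26 CPM in WT libraries, with 9.534, 4.52 and 7.362 CPM in those of DKO cells (-0.996, adjusted p = 0.457), and at day 3, 20.62, 19.14 and 18.23 CPM in WT libraries, with 7.08, 13.41 and 11.52 CPM in those of DKO cells (-0.85, adjusted p = 0.214). In MEFs at day 0 it had 9.482, 9.43 and 10.91 CPM in WT libraries, with 6.282, 6.059 and 4.447 CPM in those of DKO cells (-0.83, adjusted p = 0.327). The WT and DKO libraries did not overlap in these 3 comparisons. In DKO MEFs it rose by 1.04 on the log2 scale from day 0 to day 4 (adjusted p = 0.000969, edgeR), and from then on the MEF genotypes were within 0.08 of each other. In preadipocytes its fold change stayed negative, at -0.26 on day 6 (adjusted p = 0.256) and -0.26 on day 9 (adjusted p = 0.169, edgeR).

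Whether the step between consecutive days differed between genotypes was tested as an interaction over the 24 libraries of a cell type. In all 6 such tests 0 members were called by edgeR. The shares of all genes called in either direction were 0.0948%, 0.628% and 0% for the 3 steps of preadipocytes and 0.00588%, 0% and 0.00588% for those of MEFs. DESeq2 called 1 member in preadipocytes for day 6 against day 3 and 1 in MEFs for day 4 against day 0, and 0 in the other 4 tests. The first 2 steps of preadipocytes had 21 and 10 members at an unadjusted p under 0.05, with medians of 0.24 and 0.18, and 72 and 69 of 78 positive. The remaining tests had 1 to 4. Shares of all genes at an unadjusted p under 0.05, or with a positive sign, were not counted. These counts therefore do not set the members apart from other genes. At this number of libraries a larger rise in DKO cells was thus not shown for any single member by the main test, and a p that misses the threshold does not show that the steps were alike.

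Genes that work with the mitoribosome were read from lists, beside 11.6% of all genes called higher at preadipocyte day 6 and 17.3% at MEF day 12. At preadipocyte day 6, 4 of the 5 mitoribosomal proteins without an Mrp symbol were called higher in DKO cells, among them Dap3, a GTP-binding protein of the small subunit (0.33, adjusted p = 0.0281), Ptcd3, an RNA-binding protein (0.33, adjusted p = 0.0315), and Chchd1 (0.33, adjusted p = 0.0402). Of 26 assembly factors 15 were higher and 0 lower with a median log2 fold change of 0.36, led by the GTPase Mtg1 (0.71, adjusted p = 0.00385), the rRNA methyltransferase Tfb1m (0.52, adjusted p = 0.00971) and Eral1 (0.53, adjusted p = 0.0123). Of 16 translation factors 10 were higher, led by Taco1, an activator of Cox1 translation (0.67, adjusted p = 0.00457), Gfm2 (0.51, adjusted p = 0.00519) and the initiation factor Mtif3 (0.54, adjusted p = 0.00521). Of 20 genes for mitochondrial transfer RNA synthetases and their amidotransferase 12 were higher, among them Gatc (0.90, adjusted p = 0.00389) and Vars2 (0.49, adjusted p = 0.00627). None of these lists had a gene called lower, and all these values are from edgeR's quasi-likelihood test.

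On the last day of MEFs the same lists had 1 of 5 other mitoribosomal proteins (Ptcd3, 0.28, adjusted p = 0.000575), 7 of 26 assembly factors (Trub2, Ddx28 and Mtg1 first), 10 of 16 translation factors (Oxa1l, 0.59, adjusted p = 7.81e-07, Gfm1, 0.42, adjusted p = 1.78e-06, and Gfm2 first) and 8 of 20 synthetase genes (Gatc, 0.96, adjusted p = 2.88e-07, first) called higher, and 0 lower. Oxa1l is an insertase of the inner membrane that the list counts with the translation factors. With 17.3% of all genes called higher that day, the 1 of 5 was near the share of all genes. The 7 of 26 was not far above it. The 2 mitochondrial ribosomal RNAs, mt-Rnr1 and mt-Rnr2, were both higher by 0.77 (adjusted p = 5.99e-09 and 4.38e-09). In preadipocytes at day 6 they were not called. Of the 13 proteins encoded by mitochondrial DNA, the products of this ribosome, 6 were higher at preadipocyte day 6 and 8 at MEF day 12, with medians of 0.40 and 0.42 and 0 lower. Ribosomal RNA counts depend on how RNA was selected for sequencing, for which the sources differ.

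The nuclear genes for oxidative phosphorylation subunits, whose products join those made by the mitoribosome, had larger medians than the members. At preadipocyte day 6, 69 of 84 were higher in DKO cells and 0 lower with a median of 0.49, and at MEF day 12, 78 of 84 and 0 with a median of 0.41. The cytosolic ribosomal proteins had medians of the opposite sign, with 1 of 81 higher and 13 lower at preadipocyte day 6 (median -0.21), where 9.96% of all genes were lower, and 3 higher and 66 lower at MEF day 12 (median -0.23), where 15.8% were. Most of them were thus not called at preadipocyte day 6. The median over all genes tested was within 0.02 of 0 on both days. Along differentiation of WT preadipocytes from day 3 to day 6, 82 of 85 oxidative phosphorylation genes were higher with a median of 1.47, the members' median was 0.94, and 54 of 81 cytosolic ribosomal protein genes were lower with a median of -0.29. The proteins of the mitochondrial and the cytosolic ribosome thus had medians of opposite sign in DKO against WT cells on both days and in this step.

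**Figure D5:**
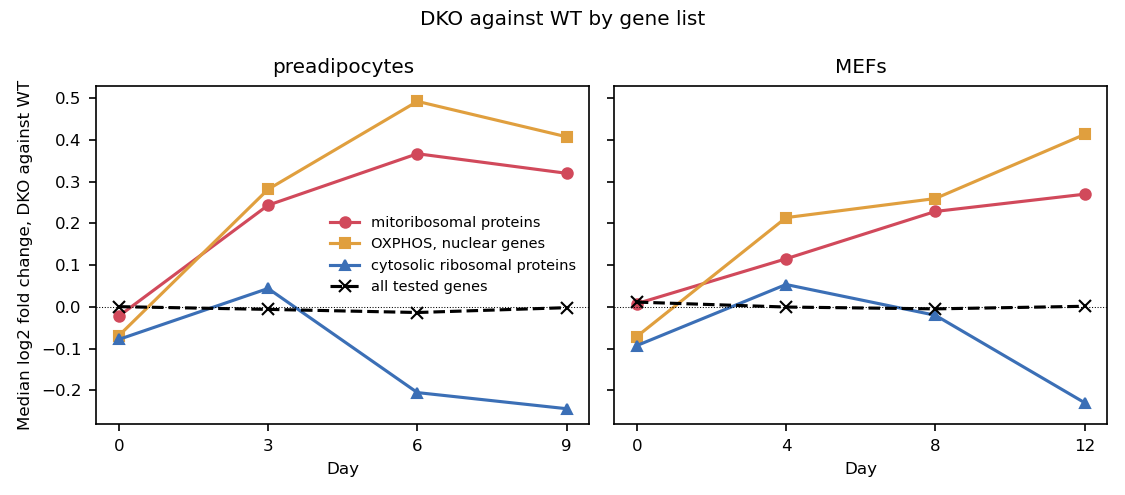
Median log2 fold change of DKO against WT against day for the 78 mitochondrial ribosomal protein genes, the nuclear oxidative phosphorylation genes, the cytosolic ribosomal protein genes and all genes tested, in preadipocytes and MEFs. At MEF day 12 the medians are 0.27, 0.41, -0.23 and near 0.

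Other cell type markers moved along with these results. At preadipocyte day 6 the 10 adipocyte markers summed to 22100, 27060 and 23200 CPM in the WT libraries and 29790, 37000 and 33080 CPM in the DKO libraries, with 6 of 10 called higher. The 6 brown-like markers summed to a mean of 265.5 CPM in WT libraries and of 730.6 CPM in DKO libraries, and Ucp1 was higher by 2.38 on the log2 scale (adjusted p = 0.00018, edgeR). The 8 macrophage markers summed to 6343, 10150 and 10470 CPM in WT and 4992, 2153 and 3527 CPM in DKO libraries, all 8 being lower in DKO cells and 1, Lyz2, called. The groups did not overlap in these sums. In MEFs on day 12 all 10 adipocyte markers were called higher and all 8 macrophage markers lower, with sums of 28390 to 30310 against 18560 to 19030 CPM and of 3285 to 3771 against 5028 to 5072 CPM. The members' difference was measured in RNA of whole cultures, in which more adipocytes among the cells and more of these transcripts per adipocyte cannot be told apart, and the part that the markers' cell types have in it was not tested.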

How the data were processed

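Per the labels and the study's methods, the authors trimmed reads of 50 bases with cutadapt 1.18 after bcl2fastq 2.17, aligned them with STAR 2.7.0f to mm10 and deposited RSEM 1.3.0 expected counts per gene, 1 table per cell type. The labels name polyA RNA and the methods a stranded total RNA kit. The strand setting of RSEM is not given in the sources used here. Expected counts were rounded to whole numbers, and 50 members had a value that was not whole in at least 1 library, as RSEM splits reads between genes, so these counts carry that estimate's error.

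Genes were kept by edgeR's filter on low counts and scaled by TMM, and tested with edgeR 4.0.16 (glmQLFit and glmQLFTest, R 4.3.3) over all genes kept, two-sided, with Benjamini-Hochberg adjustment in each comparison, in 8 comparisons of genotypes, 16 of days and 6 interactions. CPM values were TMM-scaled over the 24 libraries of a cell type. TPM used the union of exon lengths. Values overlap between groups where the highest library of one is not below the lowest of the other, and with 3 against 3 libraries an exact permutation test of 1 gene could not go below p = 0.1, so none was run. Replicate libraries differed beyond counting noise (chi-square per degree of freedom 2.11 to 154). At MEF day 12 this value was 2.14 to 3.42 between WT and 2.91 to 11.6 between DKO libraries. Alternatives used DESeq2 1.42.0 and limma 3.58.1. Shares of all genes are given for the edgeR tests above. They were not counted for unadjusted p, and are not given for alternative fits or fits without a library. The fits were tested on simulated data with changes larger than the members' DKO differences. Recovery of differences as small as those was not tested. Columns and samples were joined by name. Intervals between libraries cover these libraries only.

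The members, the gene lists and the subunit classes were chosen with earlier results of these data known. Named were up to 5 called members in each direction of a comparison with the smallest p and no overlap, members called against the majority, the 3 highest and lowest by TPM, members of fixed roles and up to 3 called genes of each other list. Names given outside this rule (such as Mrps22, Mrpl14 and Mrps25's course) were chosen after their values were seen. The replicate numbers paired libraries only between days 0 and 3 of DKO preadipocytes (correlations of deviations 0.407 to 0.562) and between days 6 and 9 of DKO (0.368 to 0.459) and WT preadipocytes (0.13 to 0.453), and not between genotypes (-0.687 to 0.602).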

Additional observations from a re-analysis of the deposited data

How the results depend on the processing

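No called value of a named member changed its sign under the alternatives that were run. Among the values of named members, 2083 kept their side of the threshold, 120 lost the call and 31 gained it. Counts of members called in DKO against WT moved as follows. In preadipocytes at day 3 the count of 0 became 9 in 1 fit over all days, 5 under DESeq2, 1 with no filter on low counts and 1 with the replicate number as a block. At day 9 the count of 3 became 43 in 1 fit over all days, 24 under DESeq2, 23 with no filter and 0 with the replicate block. With a 1.5-fold minimum it was 1, where 0.469% of all genes were higher and 0.776% lower. At day 6 the 1.5-fold minimum left 2. In MEFs at day 0 the count of 0 became 2 in 1 fit and 2 under DESeq2, and at day 12 the count of 58 became 12 in 1 fit and 2 with the 1.5-fold minimum. Between days, the 1.5-fold minimum left these counts, each with the shares of all genes higher and lower under it. WT preadipocytes had 2 at day 3 against 0 (11.1% and 13.6%) and 1 at day 9 against 6 (8.8% and 5.22%). DKO preadipocytes had 14 (13% and 14%) and 0 (6.05% and 2.99%) in the same steps. WT MEFs had 5 at day 4 against 0 (14.8% and 18.4%) and 8 at day 12 against 8 (12.5% and 8.73%). At day 12 against 0 they had 31 (12.5% and 13.8%). DKO MEFs had 12 at day 4 against 0 (11.4% and 14.7%) and 17 at day 12 against 8 (14.5% and 7.13%). The WT day 9 against 6 count of 13 became 8 with a 0.5 CPM filter, 6 in 1 fit over both genotypes, 6 with no filter and 24 with the replicate block over those days. That fit gave 14 in DKO cells, where the block over all days and library sizes alone each gave 6, and it was chosen after seeing the data. WT preadipocytes at day 3 against 0 gave 12 with such a block and 14 without. WT MEFs at day 8 against 4 gave 6 under DESeq2, 5 by library size and 1 with the block. DKO MEFs gave 60 by library size at day 4 against 0, and 14 by library size, 21 by limma-voom and 21 with no filter at day 12 against 8. DESeq2 called 1 member in the interaction of preadipocyte days 6 and 3 and 1 in that of MEF days 4 and 0. The replicate block changed no other count by over 1.5 times. The cause of these changes was not tested. Except for the 1.5-fold minimum, shares of all genes under these settings are not given, so whether all genes moved alike is not shown.

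Leaving out 1 library at a time gave 8 to 57 members at preadipocyte day 6, 0 to 59 at day 9 and 46 to 61 at MEF day 12. Between days the ranges were 16 to 20, 72 to 76, 2 to 10 and 72 to 77 in WT preadipocytes (days 3 against 0, 6 against 3, 9 against 6, 9 against 0), 37 to 48, 74 to 77, 0 to 7 and 76 to 77 in DKO preadipocytes, 37 to 45, 0 to 17, 22 to 38 and 59 to 65 in WT MEFs (days 4 against 0, 8 against 4, 12 against 8, 12 against 0), and 19 to 45, 0 to 12, 10 to 35 and 68 to 74 in DKO MEFs. The interaction counts were 0 to 1. With library sizes alone the median of all genes moved by -0.11 at preadipocyte day 6, by -0.17 in WT and -0.26 in DKO preadipocytes at day 6 against 3, and by -0.15 in WT and -0.27 in DKO MEFs at day 12 against 0. The members' medians for DKO against WT were then 0.27 at day 6, 0.22 at day 9 and 0.21 at MEF day 12, and their calls 36, 3 and 44.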

Other observations

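Of 13 genes for transcription and replication of mitochondrial DNA, 5 were higher and 0 lower in DKO preadipocytes at day 6, where 11.6% of all genes were called higher, and their median log2 fold change was 0.28. Tfb2m, an initiation factor of the mitochondrial RNA polymerase, was higher by 0.49 (adjusted p = 0.00867, edgeR), Tefm, its elongation factor, by 0.51 (adjusted p = 0.00867) and Mterf2 by 0.98 (adjusted p = 0.00926). At MEF day 12, where 17.3% of all genes were called higher, 3 were higher and 0 lower. They were Tfb2m by 0.33 (adjusted p = 0.000234, edgeR), Tefm by 0.45 (adjusted p = 0.000789) and Tfam by 0.19 (adjusted p = 0.0402). Tfam packs the mitochondrial genome and takes part in its transcription. All 13 were higher at day 9 than at day 0 in preadipocytes of both genotypes, as were 34.8% of all genes in WT and 34.7% in DKO cells.

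Among 9 regulators of mitochondrial biogenesis the coactivators Ppargc1a and Ppargc1b and the receptor Esrra were higher in DKO preadipocytes at day 6, by 0.79 (adjusted p = 0.00696) for the first, 0.57 (adjusted p = 0.0197) for the second and 0.50 (adjusted p = 0.0352) for the receptor, all by edgeR. In MEFs at day 12 Ppargc1a was higher by 0.26 (adjusted p = 0.00977), Ppargc1b by 0.86 (adjusted p = 6.3e-05) and Esrra by 0.45 (adjusted p = 0.000143). Pprc1, another coactivator of the family, had a log2 fold change of -0.36 there (adjusted p = 0.000123). The median of the 9 was -0.01 at preadipocyte day 6 and -0.04 at MEF day 12, so the list as a whole did not follow these 3 genes.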
